A study of Mus musculus with 8 samples.

Results

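Gimap4, Gimap5 and Gimap9 are 3 of the 622 genes in a deposited table of RNA sequencing values from mouse hemogenic endothelium, the endothelial cells from which blood cells emerge. They were taken from the table by their symbols, as its members of the GIMAP family, and all 3 were found. The table holds only genes that the authors called different between Runx1 knockout (ko) and wild-type (wt) cells, so the genes were selected on their ko and wt values, which are given as a description, with no test. The work asked which genes RUNX1 controls in this endothelium before blood emerges, a step that needs this transcription factor.

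The ko groups were the lines iDamko (iDam_runx1-/-) and Ainv18ko (Ainv18_runx1-/-), and the wt groups were iDam and BryGFP, with 2 libraries per line and 4 per genotype, which the design text calls biological duplicates. All 4 are embryonic stem cell lines of strain 129, and the labels give no treatment that differs between them. Embryoid bodies were cultured to day 3.25, FLK1-positive cells were kept for 2 days in blast medium, and cKIT+ TIE2+ CD41- cells were then sorted. The wt partner of iDamko by name is iDam. Ainv18ko was set against BryGFP, a line of another name, so in that pair line and genotype cannot be told apart. Kit, Tek and Itga2b, which encode the sorted surface proteins, and Runx1 itself were not analysed here, so the genotypes and the sort rest on the labels.

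GIMAP proteins (GTPases of immunity-associated proteins) share a GTP-binding domain of the AIG1 type and are anchored to or associated with intracellular membranes. The family is best known from lymphocytes. In mice and rats, loss of Gimap5, whose product is found on lysosomes, shortens the survival of T cells, and Gimap4 is known from work on the death of T cells. Members are also expressed in endothelial cells. No role is given here for Gimap9.

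The genes lie in a single cluster on chromosome 6 (GRCm38, GENCODE M21). Gimap9 (ENSMUSG00000051124) spans 48676129 to 48679114, Gimap4 (ENSMUSG00000054435) 48684549 to 48692060, and Gimap5 (ENSMUSG00000043505) 48746197 to 48754210, all on the plus strand. Each is protein-coding with 3 exons after its transcripts are merged. Gimap9 ends 5.43 kb before Gimap4 starts, and 54.1 kb with 4 further annotated Gimap genes separate Gimap4 from Gimap5. The cluster holds 9 annotated Gimap genes over 123.6 kb. The other 6 (Gimap1, Gimap1os, Gimap3, Gimap6, Gimap7 and Gimap8) were not analysed here.

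**Figure D1:**
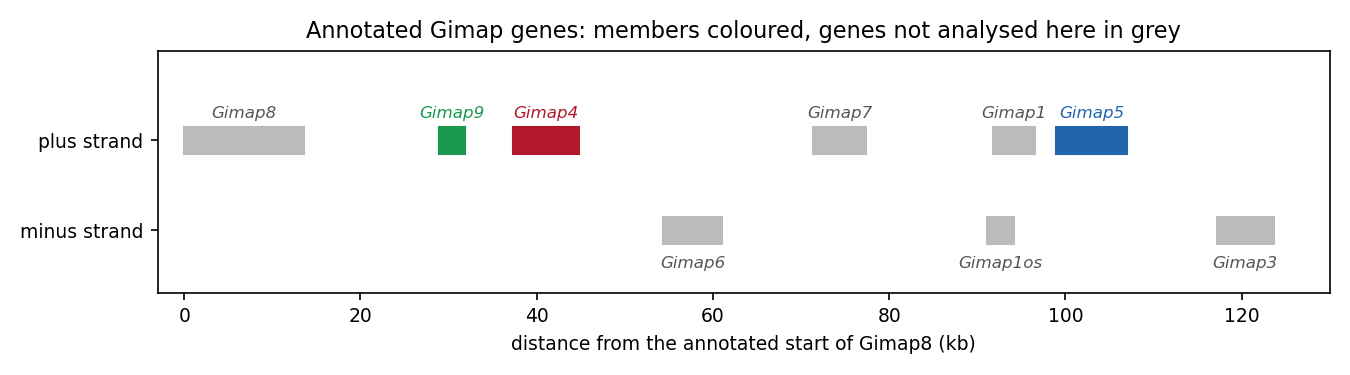
Map of the annotated Gimap genes, drawn to scale, with distance from the annotated start of Gimap8 in kb on the x axis and strand on the y axis. Gimap9 (green) and Gimap4 (red) are neighbours 5.43 kb apart, Gimap5 (blue) lies 54.1 kb beyond Gimap4, and the genes not analysed here are grey.

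The promoters are shown because the compared lines differ in RUNX1, which binds DNA at a short core. Each sequence is the 250 bases before the gene's start in RefSeq (GRCm38.p6), on the plus strand, which is the strand of all 3 genes. Capitals mark letters that match the RUNX core TGTGGT or TGCGGT, or the GATA core AGATAA or TGATAA, searched on both strands, and the ETS core CGGAAG was searched too. The intervals are chr6:48675885-48676134 for Gimap9, chr6:48684328-48684577 for Gimap4 and chr6:48745947-48746196 for Gimap5.
Gimap9: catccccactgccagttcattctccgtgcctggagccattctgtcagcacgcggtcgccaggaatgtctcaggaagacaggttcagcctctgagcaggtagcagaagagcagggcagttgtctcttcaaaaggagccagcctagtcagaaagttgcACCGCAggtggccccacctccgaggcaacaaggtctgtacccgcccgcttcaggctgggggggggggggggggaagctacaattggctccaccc
Gimap4: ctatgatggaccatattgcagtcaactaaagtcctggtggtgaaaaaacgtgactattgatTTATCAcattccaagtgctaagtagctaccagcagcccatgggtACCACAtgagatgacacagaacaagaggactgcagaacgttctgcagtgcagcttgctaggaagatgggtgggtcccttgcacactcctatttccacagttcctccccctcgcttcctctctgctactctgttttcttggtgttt
Gimap5: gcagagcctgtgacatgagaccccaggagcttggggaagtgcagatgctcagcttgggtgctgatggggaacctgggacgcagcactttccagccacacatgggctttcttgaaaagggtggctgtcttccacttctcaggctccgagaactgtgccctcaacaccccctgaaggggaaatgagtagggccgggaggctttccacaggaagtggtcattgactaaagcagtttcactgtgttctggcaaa
The Gimap4 promoter held a RUNX core on the opposite strand whose first printed base is 145 bases before the start, and a GATA core on the opposite strand at 189 bases. The Gimap9 promoter held a RUNX core on the opposite strand at 94 bases. The Gimap5 window held none of these letters. Of 32851 RefSeq mouse promoters of this length, 18.6% held a RUNX core, and so did 18.5% of 486 promoters of genes in the table. A GATA core stood in 16.6% of all promoters and in 11.5% of those of the table. A match of letters in this window is a description, and binding was not measured here.

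Before the values, 3 facts about the libraries bear on them. Steps between low values put the depth at 42280000 to 58930000 reads per library, and the intervals below cover counting error only. The same-numbered ko libraries of different lines were closer to each other than the libraries of a ko line. Their median absolute log2 difference over the 622 genes was 0.0915 and 0.0997, against 0.139 within iDamko and 0.166 within Ainv18ko. Which ko library belongs to which line thus rests on the column names, and so do all values below that set the ko lines apart or pair them with a wt line. The wt libraries were closer within a line (0.162 in iDam and 0.159 in BryGFP) than between the lines (0.241 to 0.266).

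All 3 Gimap genes were lower in ko than in wt hemogenic endothelium, and for each gene every ko library lay below every wt library. Mean levels in ko cells were 25.7% of wt for Gimap4, 36.9% for Gimap5 and 39.6% for Gimap9. The genes were selected on this contrast, so nothing is read from these counts: 62.2% of the 622 genes were lower in ko against both wt lines, and in 61.6% all 4 ko libraries lay below all 4 wt libraries. In such bulk samples, fewer cells that express a gene and less RNA per cell cannot be told apart.

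Gimap4 was the most abundant of the 3 in every library, on the RPKM scale (reads scaled by gene length and library size). Its level was 3.50 and 3.95 RPKM in iDamko and 2.73 and 2.89 RPKM in Ainv18ko, against 16.9 and 21.1 RPKM in iDam and 4.87 and 7.92 RPKM in BryGFP. The iDam libraries stood far above the other 6, and BryGFP library 1 came nearest to the ko libraries, at 1.23 times the highest of them. The 95% counting interval of that BryGFP library, 4.26 to 5.54 RPKM, overlapped that of iDamko library 2, 3.47 to 4.47 RPKM. Gimap4 averaged 3.27 ± 0.564 RPKM in ko and 12.7 ± 7.58 RPKM in wt (SD, n = 4 each). The ratio of means was 3.89-fold lower in ko, with 5.10-fold for iDamko against iDam and 2.28-fold for Ainv18ko against BryGFP. About 130 to 250 reads stood behind each ko value, against about 232 to 965 behind each wt value.

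Gimap5 was the least abundant on average in both genotypes. Its level was 0.667 and 0.480 RPKM in iDamko and 0.566 and 0.501 RPKM in Ainv18ko, against 1.60 and 1.70 RPKM in iDam and 1.65 and 1.06 RPKM in BryGFP. The ko libraries fell in a narrow band, and BryGFP library 2 was the lowest of the wt libraries. Gimap5 averaged 0.554 ± 0.0840 RPKM in ko and 1.50 ± 0.297 RPKM in wt (SD, n = 4 each), 2.71-fold lower in ko. The fold was 2.87 for iDamko against iDam and 2.53 for Ainv18ko against BryGFP. Only about 25 to 38 reads stood behind each ko value, against about 66 to 101 in wt libraries. Gimap5 is the member that shares sequence with other genes: 9.47% of the 35-base windows in its transcripts also occur in other genes, and 7.15% in Gimap3. Of its exon bases, 3.69% overlap the same-strand transcript Gm28053. The annotation gives Gimap5 4149 exon bases, while the authors' deposited values imply 1197 bases, so the shares in the counted part are not known. The counted part is not known for the other members either. Gimap4 has 1837 annotated exon bases and an implied length of 1073, and Gimap9 has 1642 and 1020. Gimap4 and Gimap9 shared 0 windows of this length with other genes.

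Gimap9 lay between them on average in both genotypes. Its level was 0.715 and 1.49 RPKM in iDamko and 1.10 and 1.30 RPKM in Ainv18ko, against 2.62 and 3.79 RPKM in iDam and 2.81 and 2.38 RPKM in BryGFP. The iDamko libraries differed from each other by more than counting error, with 95% intervals of 0.495 to 0.999 and 1.20 to 1.83 RPKM. Gimap9 averaged 1.15 ± 0.331 RPKM in ko and 2.90 ± 0.621 RPKM in wt (SD, n = 4 each), 2.52-fold lower in ko. The fold was 2.91 for iDamko against iDam and 2.16 for Ainv18ko against BryGFP.

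**Figure D2:**
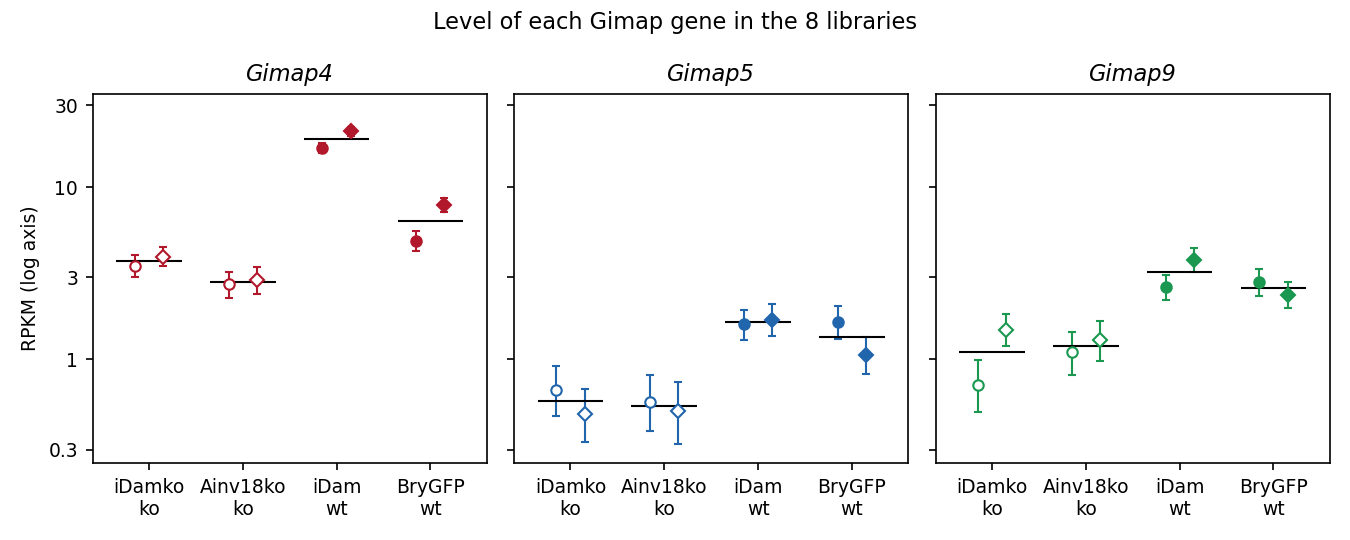
Level of Gimap4, Gimap5 and Gimap9 in RPKM, on a log axis, in the 8 libraries by line, with ko as open and wt as filled symbols, circles for library 1 and diamonds for library 2. Error bars are 95% counting intervals and horizontal lines are line means. Every open symbol lies below every filled one in each panel, and the Gimap4 means of iDam and BryGFP, 19.0 and 6.40 RPKM, are apart while those of Gimap5 and Gimap9 are close.

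Summed over the 3 genes, the level was 4.39 to 5.92 RPKM in ko libraries and 9.32 to 26.6 RPKM in wt libraries. Gimap4 made up 61.6% to 71.7% of this sum in ko libraries, against 79.3% to 80.1% in iDam and 52.2% to 69.8% in BryGFP. Its share in the ko libraries thus lay below iDam and overlapped BryGFP.

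In the authors' deposited table, Gimap4 was 5.45-fold lower in the 4 ko libraries than in iDam (FDR 2.18e-18) and 1.95-fold lower than in BryGFP (FDR 0.0209). For Gimap5 the authors' deposited table gives 2.60-fold (FDR 0.00130) and 2.11-fold (FDR 0.0497), and for Gimap9 2.51-fold (FDR 0.00365) and 2.18-fold (FDR 0.0203). Both comparisons use the same 4 ko libraries. The Gimap5 FDR against BryGFP stood just inside the threshold of 0.05, and genes just outside it were not analysed here. In the authors' deposited table, the median fold of the 387 genes lower in ko was 3.87 against iDam and 4.23 against BryGFP. Gimap4 was above the first median and below the second, and Gimap5 and Gimap9 were below both. Of the 321 protein-coding genes lower in ko, 24.0% had a larger fold than Gimap4 against iDam and 90.3% against BryGFP.

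On the scale of log2(RPKM + 1), which understates the change of weakly expressed genes, the ko minus wt difference was -1.50 for Gimap4, -0.68 for Gimap5 and -0.86 for Gimap9, beside a median of -0.46 over the 622 genes. Relative to that median the differences were -1.04, -0.21 and -0.40. Quantile normalization put the table's median at -0.09, and relative to it Gimap4 stood at -0.98, Gimap5 at -0.04 and Gimap9 at -0.18. Median-ratio scaling put it at -0.27, with Gimap4 at -0.62, Gimap5 at -0.09 and Gimap9 at -0.14 relative to it. Both scalings were computed over genes chosen for differing between the genotypes. Within pairs, the Gimap4 difference was -2.08 ± 0.23 for iDamko over iDam and -0.93 ± 0.23 for Ainv18ko over BryGFP (SE). For Gimap5 it was -0.75 ± 0.17 and -0.61 ± 0.17, and for Gimap9 -1.01 ± 0.24 and -0.71 ± 0.24, in the same order of pairs.

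The wt lines differed in Gimap4. Gimap4 averaged 19.0 ± 2.92 RPKM in iDam and 6.40 ± 2.16 RPKM in BryGFP (SD, n = 2 each), a ratio of 2.97. The log2 difference was 1.46 ± 0.23 (SE, 95% interval 0.92 to 2.00), with an adjusted p of 0.00456 in limma, over all 622 genes and with a spread shared by the 4 lines. In this comparison 21.4% of the 622 genes passed, and 7.56% passed as higher in iDam. Only Acvrl1 had a larger difference in that direction. Gimap5 averaged 1.65 ± 0.0718 RPKM in iDam and 1.35 ± 0.415 RPKM in BryGFP, a log2 difference of 0.18 ± 0.17 (95% interval -0.21 to 0.57, limma adjusted p = 0.590). Gimap9 averaged 3.21 ± 0.828 RPKM in iDam and 2.59 ± 0.304 RPKM in BryGFP, a log2 difference of 0.22 ± 0.24 (95% interval -0.34 to 0.77, limma adjusted p = 0.665). Neither passed, and the intervals leave room for a difference of either sign. Without iDam library 1, iDam library 2 or BryGFP library 2, the test called 86, 80 or 68 genes in place of 133, and Gimap4 was among those called each time. Under quantile normalization 52 of 113 called genes were higher in iDam, against 47 of 133 as deposited.

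**Figure D3:**
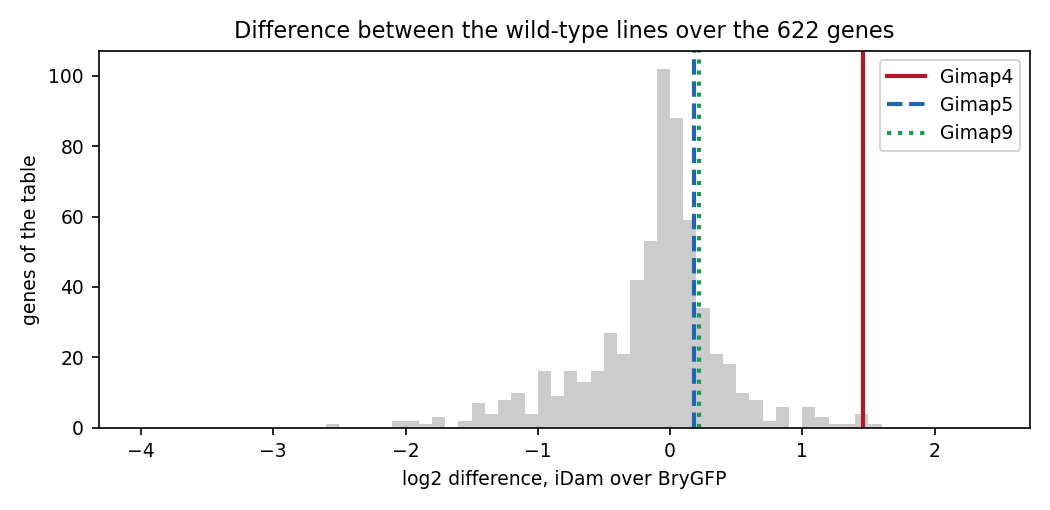
Histogram of the log2 difference between the wt lines, iDam over BryGFP, on the log2(RPKM + 1) scale, over the 622 genes of the table, with the number of genes on the y axis. The line for Gimap4 stands at 1.46, near the upper end of the distribution, and those for Gimap5 and Gimap9 stand at 0.18 and 0.22, with 128 and 108 genes above them.

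None of the 3 genes passed between the ko lines. Gimap4 averaged 3.72 ± 0.317 RPKM in iDamko and 2.81 ± 0.112 RPKM in Ainv18ko (SD, n = 2 each), a log2 difference of 0.31 ± 0.23 (95% interval -0.23 to 0.85, limma adjusted p = 1.00). Gimap5 differed by 0.03 ± 0.17 (-0.35 to 0.42) and Gimap9 by -0.09 ± 0.24 (-0.64 to 0.47), both with a limma adjusted p of 1.00. In this comparison 1.61% of the 622 genes passed. By mean level the order of lines for Gimap4 was therefore Ainv18ko, iDamko, BryGFP and iDam. Between the ko lines, next to each other in it, the difference did not pass against the spread shared by the 4 lines. Between the wt lines it did. Both iDamko libraries, at 3.50 and 3.95 RPKM, still lay above both Ainv18ko libraries, at 2.73 and 2.89 RPKM.

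For Gimap4, the ko minus wt difference in the iDam pair minus that in the Ainv18ko and BryGFP pair was -1.15 ± 0.33 on the log2 scale (95% interval -1.91 to -0.39). Genes that the authors called against only 1 wt line are absent from the table, so this test ran on genes selected on related comparisons. The unadjusted p of 0.00829 became 0.0918 after adjustment in limma, so the difference did not pass. Under a replicate block and under quantile normalization it passed, with adjusted p-values of 0.0413 and 0.0267, and over all alternatives adjusted p ranged up to 0.231. For Gimap5 the difference was -0.15 ± 0.24 (-0.69 to 0.40, limma adjusted p = 0.906) and for Gimap9 -0.30 ± 0.34 (-1.09 to 0.48, limma adjusted p = 0.810). Of the 622 genes, 5.79% passed this test, a count of 36. It was 14, 13, 13 and 12 without iDamko library 1, iDamko library 2, Ainv18ko library 1 and Ainv18ko library 2, and 17 and 20 without iDam library 2 and BryGFP library 2. Gimap4 did not pass without any of these libraries.

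**Figure D4:**
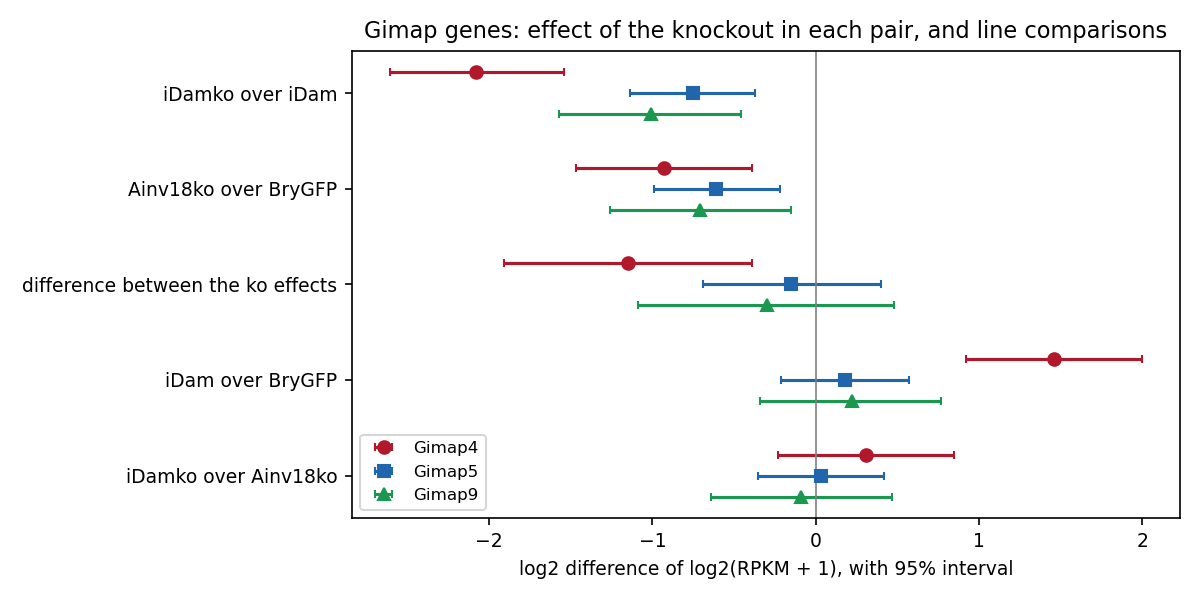
Log2 differences of log2(RPKM + 1) for Gimap4 (red circles), Gimap5 (blue squares) and Gimap9 (green triangles) in 5 contrasts of the 4 lines, with 95% intervals from limma. Gimap4 is 1.46 higher in iDam than in BryGFP and differs by 0.31 between the ko lines, with an interval that includes 0.

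The genes of the table nearest to Gimap4 in profile were chosen over all 8 libraries, so that they share its high iDam values follows from the choice. Nearness is the mean absolute difference of log2(RPKM + 1) after each gene's own mean is subtracted, and the 3 nearest were Kctd12b at 0.15, Acvrl1 at 0.20 and Limch1 at 0.21, with a table median of 0.75. Kctd12b, whose product is an auxiliary subunit of GABA-B receptors, averaged 2.01 RPKM in iDamko and 1.90 RPKM in Ainv18ko, against 15.4 RPKM in iDam and 5.05 RPKM in BryGFP. Acvrl1, the endothelial receptor ALK1 for BMP ligands, averaged 7.59 RPKM in iDamko and 6.97 RPKM in Ainv18ko, against 40.0 RPKM in iDam and 13.1 RPKM in BryGFP. Limch1, which acts on non-muscle myosin, averaged 5.31 RPKM in iDamko and 5.54 RPKM in Ainv18ko, against 25.8 RPKM in iDam and 10.8 RPKM in BryGFP.

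Gimap5 lay nearest to Cdh22 (0.07), which encodes a cadherin, Lst1 (0.08), a gene known from leukocytes, and Lbh (0.09), which encodes a transcription cofactor. Among the 3 genes nearest to Gimap9 were Ndn (0.08), which encodes necdin, and Kank4 (0.09). The table median was 0.45 for both. Gimap5 and Gimap9 lay 0.18 apart, and Gimap4 lay 0.59 from Gimap5 and 0.51 from Gimap9. The cluster neighbours were thus not the nearest in profile: 103 genes lay nearer to Gimap4 than Gimap9 did, and 39 lay nearer to Gimap9 than Gimap5 did. Distances of weakly expressed genes are small on this scale, so nearness does not mean a like fold. Cdh22 averaged 0.0927 RPKM in ko and 0.665 RPKM in wt, Lst1 0.0848 and 0.631 RPKM, and Lbh 0.408 and 1.28 RPKM. Kank4 averaged 0.0751 RPKM in ko and 0.872 RPKM in wt, and Ndn 18.9 and 35.5 RPKM.

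**Figure D5:**
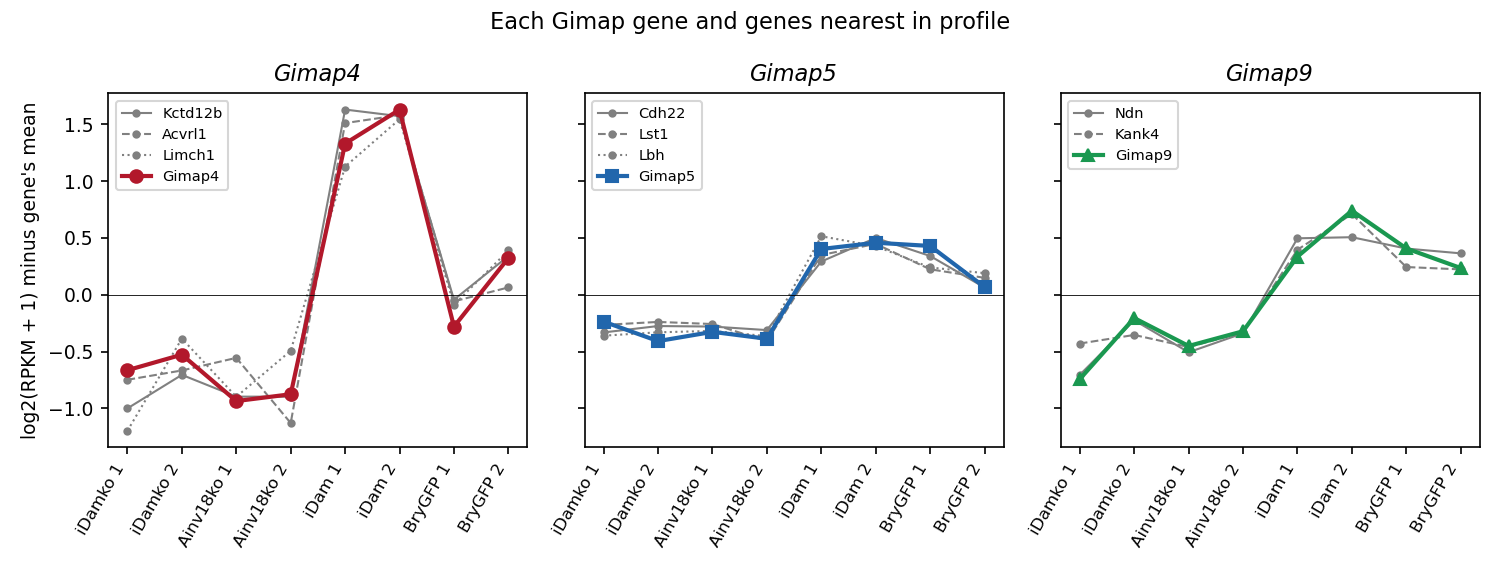
Profile of each Gimap gene (coloured) and of genes nearest to it (grey), 3 for Gimap4 and Gimap5 and 2 of the 3 for Gimap9, over the 8 libraries, as log2(RPKM + 1) minus the gene's own mean. In the Gimap4 panel the iDam libraries stand apart from the BryGFP libraries, while in the Gimap5 and Gimap9 panels the 4 wt libraries lie closer together.

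Beyond the cluster, the nearest genes of the table on chromosome 6 were more than a megabase away. Cntnap2, a neurexin-like adhesion gene 1.37 Mb on the lower side, averaged 0.645 ± 0.234 RPKM in ko and 0.130 ± 0.0288 RPKM in wt (SD, n = 4 each). Dfna5, which encodes the pore-forming gasdermin E, lies 1.43 Mb on the upper side and averaged 0.103 ± 0.0404 RPKM in ko and 0.396 ± 0.0741 RPKM in wt. So the flanking genes had opposite directions. Of the 29 table genes on the chromosome other than the Gimap genes, these flanking genes included, 20 were lower and 9 higher in ko. Over the 622 genes, 62.2% were lower in ko against both wt lines, so nothing is read from this count.

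Survival genes were sought because the GIMAP family is known for lymphocyte survival. Of 18 genes of the BCL2 family and its partners, only Pmaip1 was in the table, and of 15 genes for GIMAP partners and autophagy 0 were, the others being not analysed here. Pmaip1, which encodes the pro-apoptotic protein NOXA, had 0.322 and 1.22 RPKM in iDamko and 0.553 and 1.28 RPKM in Ainv18ko, against 2.58 and 3.65 RPKM in iDam and 2.79 and 4.35 RPKM in BryGFP. All its ko libraries lay below its wt libraries, as in 61.6% of the 622 genes, which were selected on this contrast. Pmaip1 averaged 0.844 ± 0.480 RPKM in ko and 3.34 ± 0.816 RPKM in wt (SD, n = 4 each). Between the wt lines its log2 difference was -0.14 ± 0.32 (SE, limma adjusted p = 0.885).

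Markers of cell types in which GIMAP genes are known stood in the table too, and so differ between the genotypes by its choice of genes. Of 41 lymphoid genes 3 were in the table, Lcp2, Gata3 and Ikzf2, all lower in ko, with a summed level of 0.612 to 1.89 RPKM in ko libraries and 3.73 to 6.06 RPKM in wt libraries. The T and B cell receptor genes of that list were not analysed here. Of 32 endothelial markers 3 were in the table, Cldn5, Aplnr and Clec14a, all lower in ko, with a sum of 9.28 to 19.9 RPKM in ko libraries and 40.8 to 84.9 RPKM in wt libraries. The median log2 difference was -0.90 for the 3 lymphoid genes, -1.65 for the 3 endothelial markers and -0.86 for the 3 Gimap genes. All 5 of the 24 erythroid markers in the table were higher in ko, with a sum of 141.2 to 174.0 RPKM, against 51.0 to 72.4 RPKM in wt libraries. Most of that sum was Tfrc, at 63.0 RPKM in ko and 24.9 RPKM in wt on average, and Car2, at 55.0 and 30.4 RPKM. Of 29 myeloid and megakaryocyte markers 3 were in the table, 2 lower and 1 higher in ko. Itgb2 was the higher 1, at 2.35 RPKM in ko and 0.535 RPKM in wt on average. Itgb3 averaged 0.255 RPKM in ko and 4.74 RPKM in wt. Lyz2 averaged 0.638 RPKM in wt and was listed at 0 in 3 of the 4 ko libraries. Over the 622 genes, 387 were lower and 235 higher in ko, so nothing is read from these counts of markers. The part of these markers in the Gimap values was not tested.

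Between the wt lines, 2 of the 3 endothelial markers passed as higher in iDam, as Gimap4 did, and 2 of the 3 smooth muscle markers passed as lower. Over all 622 genes, 47 passed as higher in iDam and 86 as lower. The summed endothelial markers averaged 83.0 RPKM in iDam and 42.4 RPKM in BryGFP, of which Aplnr made up 49.1 and 30.5 RPKM. Cldn5, a tight junction gene, passed (log2 difference 1.30 ± 0.29, limma adjusted p = 0.0170). Clec14a, a lectin gene of endothelium, passed too (1.44 ± 0.22, limma adjusted p = 0.00414), and the apelin receptor gene Aplnr did not (0.67 ± 0.42, limma adjusted p = 0.364). Of the lymphoid genes, Lcp2, an adaptor gene, was the 1 that passed (0.56 ± 0.13, limma adjusted p = 0.0220). Smooth muscle and mesenchyme markers, 3 of 16 in the table and all lower in ko, summed to 130.6 RPKM in iDam and 552.4 RPKM in BryGFP on average, of which Acta2 made up 128.0 and 539.8 RPKM. Acta2, smooth muscle actin, and Pdgfrb, a growth factor receptor of mesenchyme, differed by -2.05 ± 0.29 (limma adjusted p = 0.00333) and -1.97 ± 0.31 (limma adjusted p = 0.00414). Cspg4, a proteoglycan gene of pericytes, did not pass (-0.02 ± 0.04, limma adjusted p = 0.885). Of the other lists, 1 of 5 erythroid markers and 1 of 3 myeloid and megakaryocyte markers passed as lower in iDam. The erythroid markers summed to 51.7 RPKM in iDam and 67.6 RPKM in BryGFP on average, and the myeloid and megakaryocyte markers to 3.41 and 8.42 RPKM in the same order. Of the erythroid sums, Tfrc made up 18.8 and 31.0 RPKM and Car2 30.5 and 30.4 RPKM. Of the myeloid and megakaryocyte sums, Itgb3 made up 2.24 RPKM in iDam and 7.24 RPKM in BryGFP. The other genes of that list were close between the wt lines, with Itgb2 at 0.578 and 0.492 RPKM and Lyz2 at 0.591 and 0.685 RPKM. The part of all these markers in the difference of Gimap4 between the wt lines was not tested.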

How the data were processed

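Ribosome-depleted total RNA was sequenced on the SOLiD 5500XL with the same maker's total RNA library kit, per the labels' protocols and the design text. Per the submitters' processing notes, edgeR and the mm9 build were used; edgeR's version, the aligner, the counting step and the annotation are not given in the sources used here. Coordinates above are of GRCm38, found by gene ID, and none were converted. The authors deposited a value per library with no unit name, settled as RPKM from the values, and for each of 2 comparisons its p-value, FDR, log2 fold and mean level in log2 CPM. The deposited log2 folds are wt over ko in all 622 genes and were turned to ko over wt.

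Columns name lines, not samples, and were mapped to lines; Ainv18ko is the knockout line whose columns do not name Dam. Library numbers 1 and 2 come from the column names. The 4 ko columns are repeated unchanged, 1 set per comparison, and only 1 set was used. The sources used here do not say whether the biological duplicates came from separate cultures, so p-values measure only the spread between these libraries, which may be technical.

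Approximate reads per value came from the RPKM, the depth and the gene length implied by the authors' deposited CPM and RPKM (1073 for Gimap4, 1197 for Gimap5 and 1020 bases for Gimap9). For depth, 9 to 30 low values were used in each library, of which 82.4% to 100.0% came within 0.06 of a whole read. The depth was chosen to make this share as large as possible, so the share is no check of it. For the iDamko libraries the low values came from weakly expressed genes. The lengths of those genes were themselves fitted to give whole reads in other libraries.

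Contrasts between lines were fitted with limma 3.58.1 (R 4.3.3), 1 mean per line and a trend of variance with level, on log2(RPKM + 1), all 8 libraries and all 622 genes. P-values were adjusted by Benjamini-Hochberg with a threshold of 0.05. All genes of the table had passed the authors' comparisons of ko with iDam and with BryGFP. How that choice bears on the tests between lines and on the shares of genes passing was not tested. The script was tested on simulated data. Alternatives for these contrasts were pseudocounts of 0.1 and 0.5, a filter at a mean of 1 RPKM, quantile normalization, a replicate block and each library left out. For ko over wt they were the same pseudocounts, quantile normalization, median-ratio scaling, each pair of lines alone and each library left out. The genes named were the 3 Gimap genes, the 3 nearest in profile to each, the nearest table genes on either side, listed survival genes, and at most the 4 most abundant of other lists. The 3 genes and the lists were chosen with earlier results of these data known. Of the genes nearest to Gimap9, 1 is not reported here. No protein sequence is shown.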

Additional observations from a re-analysis of the deposited data

Results flagged for a closer look

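Gimap5 in BryGFP library 2, at 1.06 RPKM, lay far below the other 3 wt libraries, at 1.60, 1.70 and 1.65 RPKM. Its gap to the nearest of them was 0.841 of the range of the 4 wt libraries, above the limit of 0.829 used for a single outlying value. About 66 reads stood behind it, with a 95% counting interval of 0.819 to 1.35 RPKM. It was the 1 value beyond that limit among 6 sets of 4 libraries (3 genes in 2 genotypes), and chance alone takes about 5% of such sets past it. Without this library the Gimap5 difference of ko over wt was -0.77 on the log2(RPKM + 1) scale, against -0.68 with it, and the iDam over BryGFP difference was 0.00, against 0.18 with it.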

How the results depend on the processing

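Gimap4 stayed higher in iDam than in BryGFP and past the threshold in all 13 alternatives (log2 difference 1.16 to 1.80, adjusted p 0.00192 to 0.0298), and no alternative made Gimap5 or Gimap9 pass between the wt lines, between the ko lines or in the difference between the ko effects. The difference of ko over wt kept its sign for all 3 genes. It ranged from -2.08 to -0.88 for Gimap4. With pseudocount 0.1 it was -1.28 for Gimap5 and -1.28 for Gimap9, with pseudocount 0.5 it was -0.91 for Gimap5, with quantile normalization -0.13 and -0.26, and with median-ratio scaling -0.35 and -0.41. A smaller pseudocount shrinks low values less. Both scalings were computed over genes that differ between the genotypes, and both raised ko values relative to wt values. The median-ratio scaling factors were 0.605 to 0.651 in ko libraries and 0.996 to 1.17 in wt libraries, and the reason for that gap was not tested. Leaving out 1 library gave 68 to 116 genes called for iDam over BryGFP (133 with all), 8 to 10 for iDamko over Ainv18ko (10) and 12 to 33 for the difference between the ko effects (36), with fewer samples in each fit. Pseudocount 0.1 gave 17 for iDamko over Ainv18ko, and the cause was not tested. Same-numbered libraries deviated together in some pairs of lines only: the correlation was 0.69 between the ko lines, 0.38 for iDamko with iDam and 0.47 for Ainv18ko with iDam, but -0.03, 0.01 and -0.16 for iDamko, Ainv18ko and iDam with BryGFP. The numbers were therefore not taken as pairs. With the replicate block the counts were 153, 9 and 47, and the Gimap4 difference between the ko effects passed (adjusted p = 0.0413), as it did under quantile normalization (-1.41, adjusted p = 0.0267). Depth limits Gimap5 most, with about 25 reads in its lowest library.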
